A study of Mus musculus with 24 samples.

Results

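Gene expression in the aorta was compared between IL-17 knockout and wild-type mice that had gone through the same combined challenge, salt in the drinking water together with an infusion of β-aminopropionitrile (BAPN) and angiotensin II. The comparison was set by the labels alone, with no measured value in the choice, and used 6 of the 24 arrays of the series. The knockout group held 3 arrays and the wild-type group held 3 arrays, each from a separate biological replicate according to the design text. Both groups were of strain C57BL/6, ate normal chow and drank water with 1% NaCl before and throughout 3 days of infusion. The other arrays were controls, salt without the infusion, and the infusion without salt, each with 3 knockout and 3 wild-type arrays. The labels do not name which IL-17 gene was deleted, whether the knockout and wild-type mice were littermates, or their age and sex. In the text that follows, knockout and wild-type aortas are those under salt and infusion unless another condition is named.

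BAPN inhibits the lysyl oxidases, the enzymes that crosslink elastin and collagen, and angiotensin II raises blood pressure and drives inflammation of the artery wall. Given together they weaken the aorta of mice until it can dissect. IL-17A and IL-17F are cytokines of Th17 cells, γδ T cells and related lymphocytes. They bind a receptor of IL-17RA and IL-17RC chains, which signals through the adaptor Act1 (Traf3ip2) and Traf6 and makes fibroblasts, smooth muscle and epithelium release neutrophil-attracting chemokines, IL-6 and matrix metalloproteinases.

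RNA from the aorta was labelled with Cy3 and hybridised to 1-colour Agilent arrays. Values are given as relative signal, which is the processed signal of a probe divided by the 75th percentile of the signals on its array. Relative signal compares arrays for 1 probe and does not compare 1 gene with another. The 75th percentile lay between 616 and 769 on the knockout arrays and between 309 and 437 on the wild-type arrays. Between 56.2% and 59.6% of spots were well above background on the knockout arrays, against 53.7% to 59.7% on the wild-type arrays, and no spot was saturated. The arrays sat on 4 slides and no slide held both genotypes. All knockout arrays of the series were scanned in 1 session and all wild-type arrays in another, so that genotype, slide and scan session cannot be told apart. The 3 knockout arrays compared here shared a slide, whereas wild-type arrays 1 and 2 shared a slide of their own and wild-type array 3 was on another.

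Smooth muscle markers of the aortic media were bright on every array. Acta2, smooth muscle actin, Myh11, the smooth muscle myosin heavy chain, and Tagln, Cnn1 and Smtn were well above background on all 6 arrays. These 5 genes were picked after their values were seen. Because whole tissue was used, fewer cells of a type and less RNA per cell cannot be told apart.

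The deletion could not be checked with these arrays. The Il17a probe (mm9 chromosome 1, 20724404 to 20724463) and the Il17f probe (mm9 chromosome 1, 20768074 to 20769419) reached a signal well above background on 0 of 24 arrays in the series. On the log2 scale of relative signal the Il17a probe read -7.66 to -7.30 on the knockout arrays and -7.23 to -6.52 on the wild-type arrays, below the lowest signal that was well above background on any of them (-5.36 to -5.02 on knockout arrays and -4.93 to -4.21 on wild-type arrays). The Il17f probe read -7.40 to -6.15 on the knockout arrays and -7.18 to -6.15 on the wild-type arrays. Neither genotype therefore had a measurable Il17a or Il17f signal, and the genotype of each array rests on its label.

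Of 23501 genes tested with limma, 6702 (28.5%) passed an adjusted p threshold of 0.05. Of these, 2497 (10.6% of the genes tested) were higher and 4205 (17.9%) were lower in knockout aortas. In 6509 of them (27.7%) the 3 arrays of one genotype also lay wholly above those of the other, as they did in 45.4% of all genes tested whatever the test gave. Only 285 genes were called and more than 2-fold higher in knockout aortas, against 2320 that were called and more than 2-fold lower. In the authors' quantile-normalised values 5952 genes were called (25.3%), with 2819 higher (12.0%) and 3133 lower (13.3%). With slide as a random block 2345 genes were called (9.98%), with 394 higher (1.68%) and 1951 lower (8.30%). Leaving out knockout array 1 brought the count to 4126, the lowest of the 6 such fits.

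The excess of lower genes followed signal strength. When the tested genes were split by mean signal into 5 bins of about 4700 genes, the median difference between knockout and wild-type was -0.49 on the log2 scale in the dimmest bin, with 147 genes higher and 1359 lower. It was -0.19, 0.06 and 0.17 in the next 3 bins and 0.06 in the brightest. In the authors' values the medians were, from dim to bright, -0.08, 0.06, 0.10, 0.09 and 0.08. The 10 spike-in RNAs, which are added in fixed amounts to every sample, were all lower on knockout arrays after scaling, by 0.46 to 2.0 on the log2 scale, with no overlap between the genotypes. The 2 dimmest, with group means of -7.04 to -6.35, lay below the lowest signal well above background on any array compared. The others differed by 0.83 to 2.0. The part of these scale differences in single results was not tested. The shares of all genes, 10.6% higher and 17.9% lower, are the measure for each count over a gene list below.

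**Figure D1:**
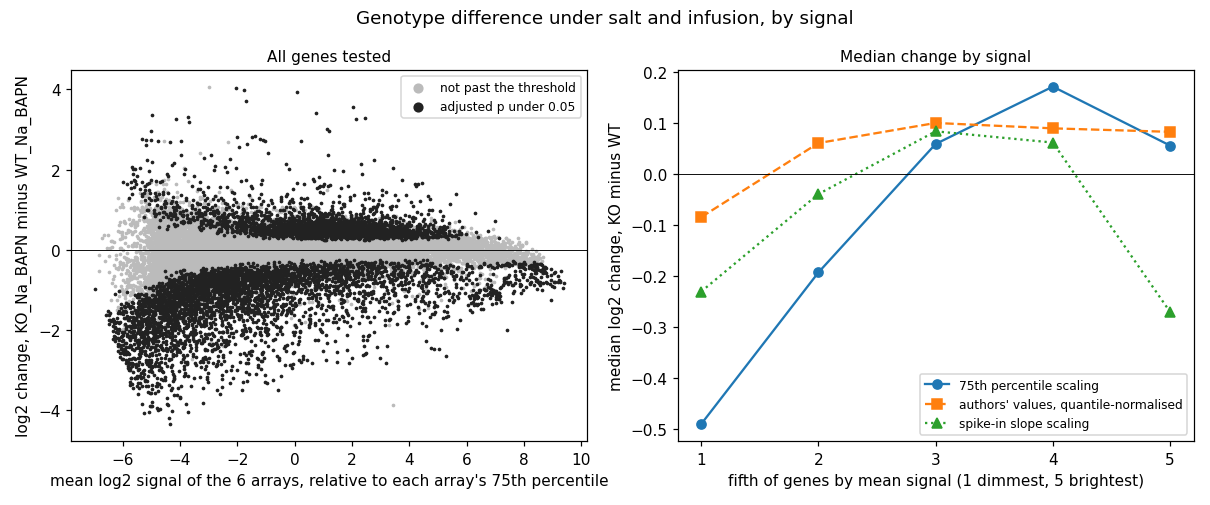
Left, log2 difference between knockout and wild-type aortas under salt and infusion (vertical axis) against mean log2 relative signal (horizontal axis), with 1 point a gene and called genes in black. Right, median difference in 5 bins of genes from dim to bright, with the 75th percentile, the authors' values and the spike-in slope as scalings: the dimmest bin is at -0.49 under the 75th percentile, while the authors' values lie between -0.08 and 0.10.

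Most genes that differed between the genotypes under salt and infusion also differed in the other conditions. Between knockout and wild-type aortas, 8723 genes (37.1%) were called in controls, 9230 (39.3%) under salt alone and 10852 (46.2%) under infusion alone. These comparisons use other arrays but the same division of genotypes by slide and scan session. Of the 6702 genes called here, 4468 (66.7%) were called in the same direction in all 4 conditions. With infusion alone the lists shared 5739 genes in the same direction, which is 85.6% of the list here and 52.9% of the list there, and 1 gene was called in opposite directions. The 505 genes called here alone comprised 282 higher and 223 lower, and 0 of them passed a test of whether the genotype difference was larger or smaller than in controls.

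That test, the difference between 2 genotype effects, called 6 genes against controls (0.0255% of those tested), 17 against salt alone (0.0723%) and 0 against infusion alone. At an unadjusted p under 0.05 the 3 tests gave 1426, 2106 and 1641 genes, and the smallest adjusted p against infusion alone was 0.195. The authors' values gave 12 genes against controls and 11 against salt alone. Without wild-type control array 1 or 3 the count against controls was 0, and without knockout infusion array 3 the count against infusion alone was 33.

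The 15 named genes with the largest positive differences ranged from 2.80 to 4.04 on the log2 scale, and 13 of them were called higher in the knockout in all 3 other conditions too. All 15 were called in the authors' values, 14 with slide as a random block, and 15 in each of the 6 fits that left out an array. Raly (mm9 chromosome 2, 154692867 to 154692926), which encodes an RNA-binding protein of the hnRNP family, had relative signals of 13.7, 14.4 and 14.2 in knockout aortas, against 1.07, 1.18 and 1.34 in wild-type aortas. The arrays of each genotype lay close together and the gap between them was 11.8-fold (log2 difference 3.56 ± 0.21 SE, limma adjusted p = 2.35e-09). In controls the log2 difference was 4.47. Hebp1 (mm9 chromosome 6, 135087770 to 135087829), a heme-binding protein, read 5.31, 5.49 and 5.52 in knockout aortas and 0.512, 0.482 and 0.554 in wild-type aortas (log2 difference 3.40 ± 0.17, limma adjusted p = 1.64e-09).

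Psap (mm9 chromosome 10, 59764825 to 59764884), the precursor of the lysosomal saposins, read 16.2, 18.3 and 17.8 in knockout aortas, against 1.69, 1.88 and 1.75 in wild-type aortas, a log2 difference of 3.30 ± 0.30 (limma adjusted p = 4.89e-07). Tnxb (mm9 chromosome 17, 34856502 to 34856561), tenascin X of loose connective tissue, read 3.44, 4.90 and 4.09 in knockout aortas and 0.336, 0.297 and 0.195 in wild-type aortas (log2 difference 3.93 ± 0.38, limma adjusted p = 1.1e-06). All arrays of both genotypes were well above background for these 4 genes and none overlapped. Dpt (mm9 chromosome 1, 166753703 to 166753762), dermatopontin, an adventitial matrix protein, read 6.98, 6.50 and 5.40 in knockout aortas and 0.969, 0.699 and 0.678 in wild-type aortas, a difference of 3.02 ± 0.30 (limma adjusted p = 1.42e-06). Its genotype difference was 3.22 in controls, 3.7 under salt alone and 3.61 under infusion alone.

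Clec2d, a ligand of the natural killer receptor Nkrp1d, was the largest of the higher genes at 4.04 ± 0.29, with 0.881, 1.11 and 0.995 in knockout aortas and 0.0479, 0.0677 and 0.0673 in wild-type aortas, where 2 of the 3 arrays were well above background. Another 4 of the 15 genes were not above background on any wild-type array, so only a bound can be given. H2bu2, a histone H2B, was at least 5.52-fold higher in knockout aortas, Syne3, a nuclear envelope protein, at least 5.47-fold, Apcdd1, an inhibitor of Wnt signalling, at least 4.04-fold, and Dlg2, a synaptic scaffold, at least 2.39-fold. Such bounds divide the bright genotype's mean by that of the dim arrays, where a dim array enters with its detection limit (its lowest signal well above background) unless the probe itself read more. Syne3 lost its call with slide as a random block (limma adjusted p = 0.092).

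Syt10, a synaptotagmin of vesicle release, had its large differences in the conditions with the infusion. Its relative signals were 2.24, 0.783 and 0.807 in knockout aortas, against 0.211, 0.0377 and 0.0772 in wild-type aortas, and the groups did not overlap (log2 difference 3.72 ± 0.50, limma adjusted p = 3.44e-05). Of the 3 wild-type arrays 2 were well above background, so the size of the difference is uncertain. The genotype difference was 0.22 in controls, 0.45 under salt alone and 4.26 under infusion alone. The difference of effects did not pass the threshold, at 3.50 against controls (limma adjusted p = 0.113) and 3.27 against salt alone (limma adjusted p = 0.119).

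The 15 largest negative differences ranged from -4.20 to -3.44, and 14 of them were called lower in the knockout in all 3 other conditions. All 15 were called in the authors' values and 14 with slide as a random block. Only Prim2, the large subunit of DNA primase (mm9 chromosome 1, 33510733 to 33510792), was well above background on all 6 arrays. It read 0.188, 0.188 and 0.221 in knockout aortas, against 2.25, 1.60 and 3.17 in wild-type aortas, which is 11.4-fold lower with no overlap (log2 difference -3.50 ± 0.21, limma adjusted p = 4.42e-09). A second Prim2 probe differed by only -0.50.

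The other genes of this set were mostly below background in the knockout. For 13 of the 15, no knockout array was well above background. Chil6, a chitinase-like protein, read 1.34 on 1 wild-type array and 0.0773 and 0.0829 on the others, so that its size rests on that array. Bounds were at least 4.55-fold lower for Pde6a, the rod photoreceptor phosphodiesterase, at least 3.91-fold for Neurog3, a factor of pancreatic endocrine development, at least 3.87-fold for Rpl10l, a testis form of a ribosomal protein, and at least 3.46-fold for Chrm1, a muscarinic receptor. None of these is a known marker of the artery wall.

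**Figure D2:**
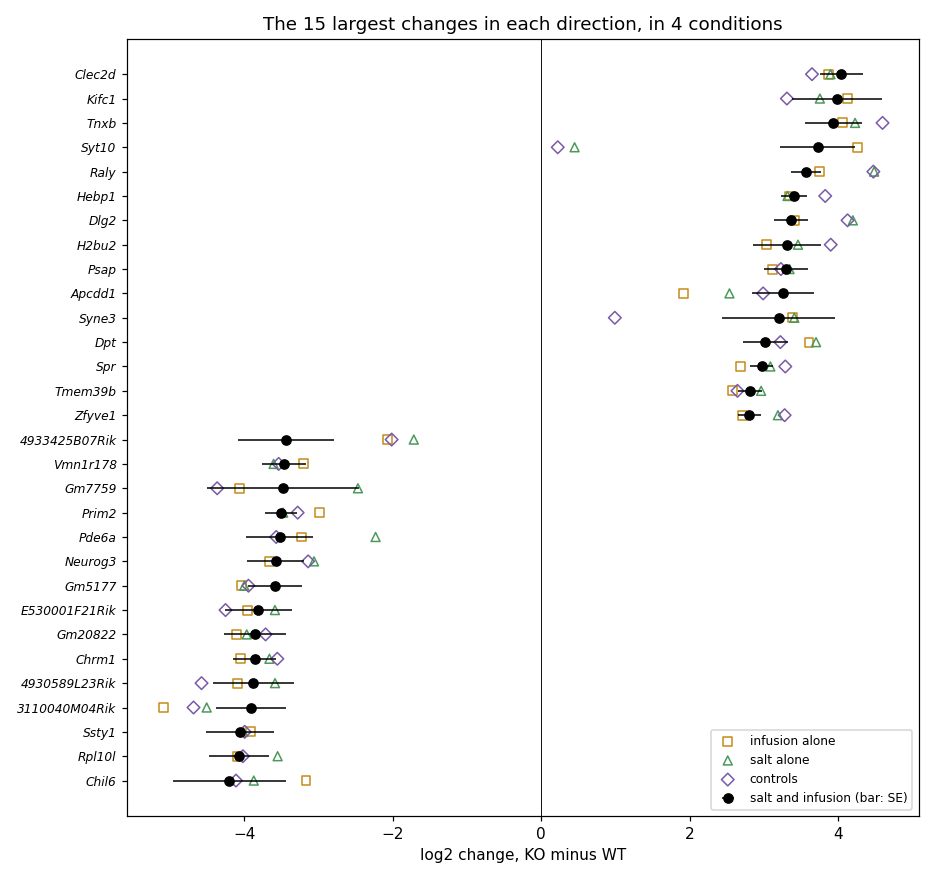
Log2 difference between knockout and wild-type aortas (horizontal axis) for the 15 largest changes of each direction (vertical axis), with black points and SE bars for salt and infusion and open symbols for infusion alone, salt alone and controls. The open symbols lie on the same side as the black points for most genes, and Syt10 is near 0 in controls and under salt alone.

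Of 13 members of the IL-17 family and its receptors kept for testing, 3 were higher and 1 was lower, against 10.6% and 17.9% of all genes, with a median difference of 0.09. None of the 4 was called with slide as a random block, and 9 further members, including Il17a, Il17f, Il17c, Il23a and Il23r, were too dim to test. Il17d, a family member expressed outside the immune system, read 1.58, 1.91 and 1.66 in knockout aortas, against 0.917, 0.793 and 1.02 in wild-type aortas (log2 difference 0.92 ± 0.20, limma adjusted p = 0.00257). Il17rd, a receptor that also restrains FGF signalling, read 0.932, 0.927 and 0.781 in knockout aortas and 0.517, 0.557 and 0.386 in wild-type aortas (0.87 ± 0.18, limma adjusted p = 0.00165). Both were higher on every knockout array.

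The receptor chain Il17rc was 1.24-fold higher, at 16.2, 17.2 and 17.7 in knockout aortas and 13.2, 14.0 and 13.8 in wild-type aortas (limma adjusted p = 0.032), a call lost in each of the 6 fits without 1 array. The shared receptor Il17ra did not pass the test, with 0.110, 0.118 and 0.203 in knockout aortas and 0.117, 0.0942 and 0.123 in wild-type aortas (limma adjusted p = 0.702). Neither did the adaptor genes Traf3ip2 (log2 difference 0.17, limma adjusted p = 0.449) and Traf6 (-0.04). Il12rb1, a subunit of the IL-12 and IL-23 receptors, was lower, with a log2 difference of -0.96 (limma adjusted p = 0.0278) but was well above background on only 2 knockout and 2 wild-type arrays.

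Of 23 genes that IL-17 is known to induce, 2 were higher and 0 lower, against 10.6% and 17.9% of all genes, and 0 were called with slide as a random block. The median was -0.15 with the 75th percentile but 0.15 in the authors' values and 0.13 after quantile normalisation, so the list had no settled direction. Steap4, a metalloreductase induced by IL-17, read 0.371, 0.400 and 0.328 in knockout aortas, against 0.168, 0.113 and 0.130 in wild-type aortas (log2 difference 1.43 ± 0.31, limma adjusted p = 0.00217). Mmp3, stromelysin 1, read 21.5, 37.2 and 31.0 in knockout aortas and 19.0, 16.0 and 21.3 in wild-type aortas (0.64 ± 0.22, limma adjusted p = 0.0325). For both genes the lowest knockout array was above the highest wild-type array, and their differences in controls were 1.32 and 1.25.

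The classic readouts of IL-17 were variable between animals. Lipocalin 2 (Lcn2) read 2.05, 0.616 and 1.14 in knockout aortas and 0.855, 0.896 and 0.682 in wild-type aortas (log2 difference 0.49 ± 0.59, limma adjusted p = 0.565). Il6 read 2.06, 1.96 and 5.47 in knockout aortas and 3.28, 0.853 and 14.6 in wild-type aortas (-0.29, limma adjusted p = 0.907). The neutrophil chemokine Cxcl1 read 0.352, 0.326 and 0.523 in knockout aortas, against 0.416, 0.700 and 1.5 in wild-type aortas (-0.96, limma adjusted p = 0.376). In each of these the arrays of the genotypes overlapped.

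S100a8 and S100a9, which form the calprotectin of neutrophils and monocytes, lay lower on each knockout array without passing the test. S100a8 read 0.0549, 0.0695 and 0.123 in knockout aortas and 0.227, 0.612 and 0.508 in wild-type aortas (log2 difference -2.41, limma adjusted p = 0.165). S100a9 read 0.206, 0.239 and 0.399 in knockout aortas and 0.651, 2.23 and 1.5 in wild-type aortas (-2.27, limma adjusted p = 0.19). Among broader inflammatory cytokines and chemokines, 2 of 24 were higher and 1 was lower. Only Lif, a cytokine of the IL-6 family, was also called in the authors' values, at 0.0563, 0.0454 and 0.0452 in knockout aortas, against 0.253, 0.282 and 0.145 in wild-type aortas (-2.16 ± 0.34, limma adjusted p = 0.000181).

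Many interferon-induced genes were higher in knockout aortas. Type I interferons act through a complex of STAT proteins and Irf9 that binds the interferon-stimulated response element in the promoters of antiviral genes. Of 30 such genes tested, 13 were higher and 0 were lower, where 10.6% and 17.9% of all genes were, and the median difference was 0.89. The authors' values gave 12 higher and 0 lower with a median of 0.91. With slide as a random block, 7 were higher and 0 lower. Without knockout array 2 the count was 8, and without wild-type array 2 it was 15.

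The response element was searched for as GAAANNGAAA, on both strands, in the 250 bases before each gene's start in RefSeq promoters (GRCm38.p6). It was present in 978 of 32851 promoters (2.98%), and in 12 of the 21 listed genes that the promoter table holds (57.1%). Among genes called higher, 4 of 8 had a match (50%), against 8 of 13 among listed genes not called (61.5%), so the match did not separate them. The promoters of the called genes with a match are shown for the stretch around it, 5′ to 3′ on the gene's own strand, with the matched letters in capitals.
Isg15: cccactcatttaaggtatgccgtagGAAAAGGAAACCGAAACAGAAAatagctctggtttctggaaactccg
Ifit1: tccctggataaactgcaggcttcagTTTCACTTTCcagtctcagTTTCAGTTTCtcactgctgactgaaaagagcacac
Ifit3: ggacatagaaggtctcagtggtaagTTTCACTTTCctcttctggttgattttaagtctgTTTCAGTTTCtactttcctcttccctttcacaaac
Oas1a: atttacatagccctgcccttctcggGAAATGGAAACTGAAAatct
The Isg15 stretch is chr4:156200850-156200921 on the minus strand and holds 3 overlapping matches that begin 78, 72 and 66 bases before the start. The Ifit1 stretch is chr19:34640760-34640838 on the plus strand, with 2 matches on the opposite strand at 104 and 85 bases. The Ifit3 stretch is chr19:34583348-34583441 on the plus strand, with 2 such matches at 156 and 122 bases. The Oas1a stretch is chr5:120907526-120907570 on the minus strand, with 2 overlapping matches at 20 and 14 bases. A match is a description of letters, and no binding was measured.

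Isg15, the ubiquitin-like modifier with 3 matches, read 12.8, 19.1 and 13.6 in knockout aortas, against 4.35, 3.37 and 2.19 in wild-type aortas. Every knockout array was above every wild-type array and the means were 4.70-fold apart (log2 difference 2.23 ± 0.38, limma adjusted p = 0.000312). Usp18, the protease that removes Isg15, read 1.43, 2.66 and 1.78 in knockout aortas, against 0.611, 0.668 and 0.528 in wild-type aortas (1.66 ± 0.30, limma adjusted p = 0.000489). Oas2, which makes the 2′-5′ oligoadenylates that activate RNase L, read 2.54, 4.67 and 3.33 in knockout aortas and 1.36, 1.14 and 0.958 in wild-type aortas (1.58 ± 0.34, limma adjusted p = 0.00236). Knockout array 2 was the highest for all 3 genes.

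Ifit1, which binds foreign RNA caps, read 0.627, 1.19 and 0.894 in knockout aortas and 0.383, 0.471 and 0.277 in wild-type aortas (log2 difference 1.25 ± 0.31, limma adjusted p = 0.00554). The RNA sensor Ddx58 (RIG-I) read 5.84, 6.28 and 5.69 in knockout aortas and 3.89, 3.67 and 3.35 in wild-type aortas (0.71 ± 0.16, limma adjusted p = 0.00319). Its related sensors Ifih1 (MDA5) and Dhx58 (LGP2) differed by 0.87 and 1.07. Among the other called genes the differences were 1.04 for Oasl2, 1.06 for Oas1a, 1.28 for Oasl1, 0.79 for the antiviral GTPase Mx2, 0.83 for Rtp4 and 1.1 for Ifit3. The calls of Rtp4, Oasl1 and Ifit3 each held in 2 of the 6 fits without 1 array. Ifih1, Dhx58, Oasl2, Oas1a, Rtp4, Oasl1 and Ifit3 were named after their values were seen.

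Not all interferon genes moved. The transcription factor Irf1 differed by 0.06, while Irf7 (1.04, limma adjusted p = 0.072) and Mx1 (1.32, limma adjusted p = 0.113) did not pass the threshold although their knockout arrays lay above the wild-type arrays. In a set of genes known for induction by interferon γ, none was called, and 1 wild-type array lay far above the rest. The immunity-related GTPase Igtp read 5.64, 5.78 and 4.0 in knockout aortas, against 2.10, 16.9 and 2.13 in wild-type aortas (log2 difference 0.26, limma adjusted p = 0.738). The guanylate-binding protein Gbp2 read 6.12, 5.63 and 4.52 in knockout aortas and 3.07, 13.8 and 2.86 in wild-type aortas (0.12, limma adjusted p = 0.840). Gbp3 and Iigp1 had the same shape, with wild-type array 2 at 7.43 and 4.27 and the other 5 arrays at no more than 3.77 and 1.64. In fits without 1 array the difference ran from -0.24 to 1.26 for Igtp, -0.27 to 0.86 for Gbp2 and -0.30 to 0.87 for Gbp3. Each of these was called in 1 such fit. For Iigp1 it ran from -0.70 to 0.31, with 0 calls. Under infusion alone the differences were 1.30 for Igtp (limma adjusted p = 0.0479), 0.94 for Gbp2, 0.88 for Gbp3 and 0.24 for Iigp1. These 4 genes were picked after their values were seen.

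The interferon difference was also present under infusion alone, where 16 of the 30 were higher and 0 lower with a median of 0.99. In controls 1 was higher and 1 lower with a median of 0.21, and under salt alone 2 and 2 with a median of 0.13. Of all genes, 18.9% were higher and 27.2% lower under infusion alone, 14.3% and 22.8% in controls, and 15.7% and 23.6% under salt alone. Mean Isg15 in knockout aortas was 2.14 in controls, 2.22 under salt, 11.4 under infusion and 14.9 under both, against 1.36, 1.32, 2.77 and 3.18 in wild-type aortas. Usp18 in knockout aortas was 0.592, 0.441, 1.49 and 1.89 in the same order, against 0.457, 0.462, 0.521 and 0.599 in wild-type aortas. The knockout levels were high in the 2 conditions with the infusion, whereas the wild-type levels of Usp18 stayed within a narrow band.

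The change of the genotype effect from controls did not pass the threshold for any of these genes. It was 1.58 for Isg15 (limma adjusted p = 0.600), 1.29 for Usp18 and 1.49 for Oas2 (both limma adjusted p = 0.553) and 1.07 for Ifit1 (limma adjusted p = 0.749). Against salt alone, Mx2 passed with a change of 1.45 (limma adjusted p = 0.0493). The 3 knockout arrays under both treatments and 1 of the knockout arrays under infusion alone were on 1 slide, and the part of the slide in this pattern was not tested.

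**Figure D3:**
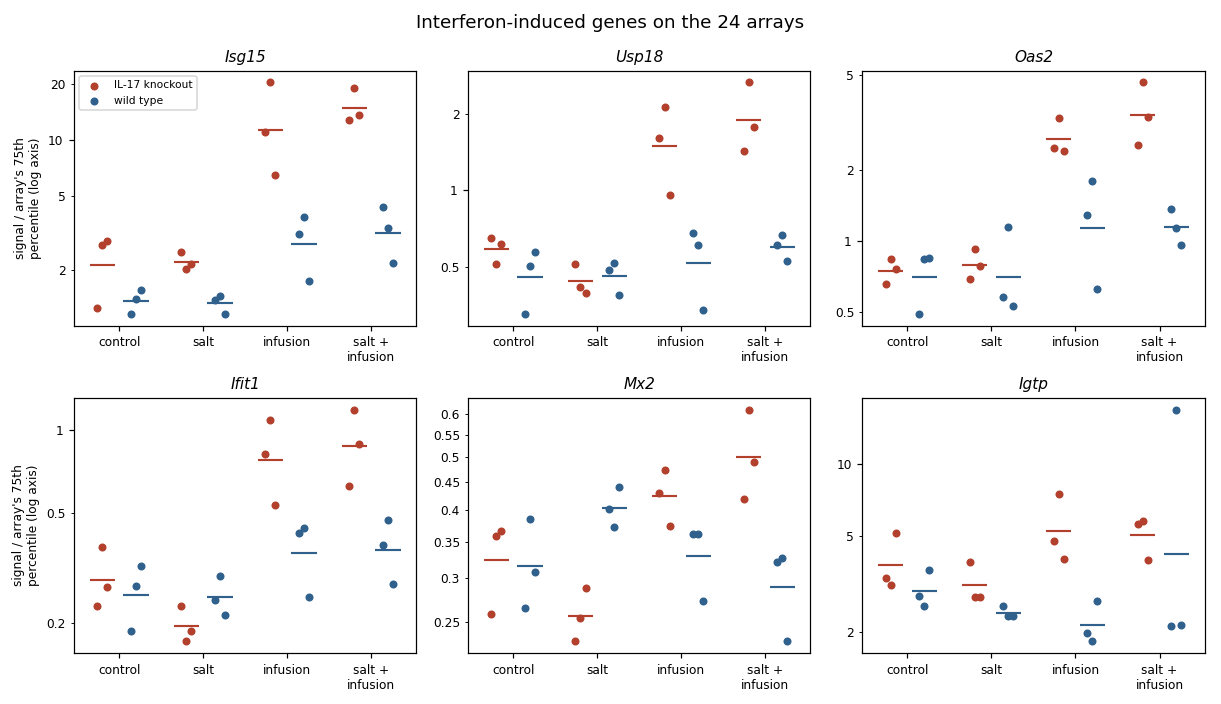
Relative signal (log axis) of 6 interferon-induced genes on the 24 arrays, by genotype and condition, with 3 points a group and a bar at the mean of the log values. Isg15, Usp18 and Oas2 are highest in knockout aortas under infusion, with or without salt, and 1 wild-type array under salt and infusion stands far above the others for Igtp.

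**Figure D4:**
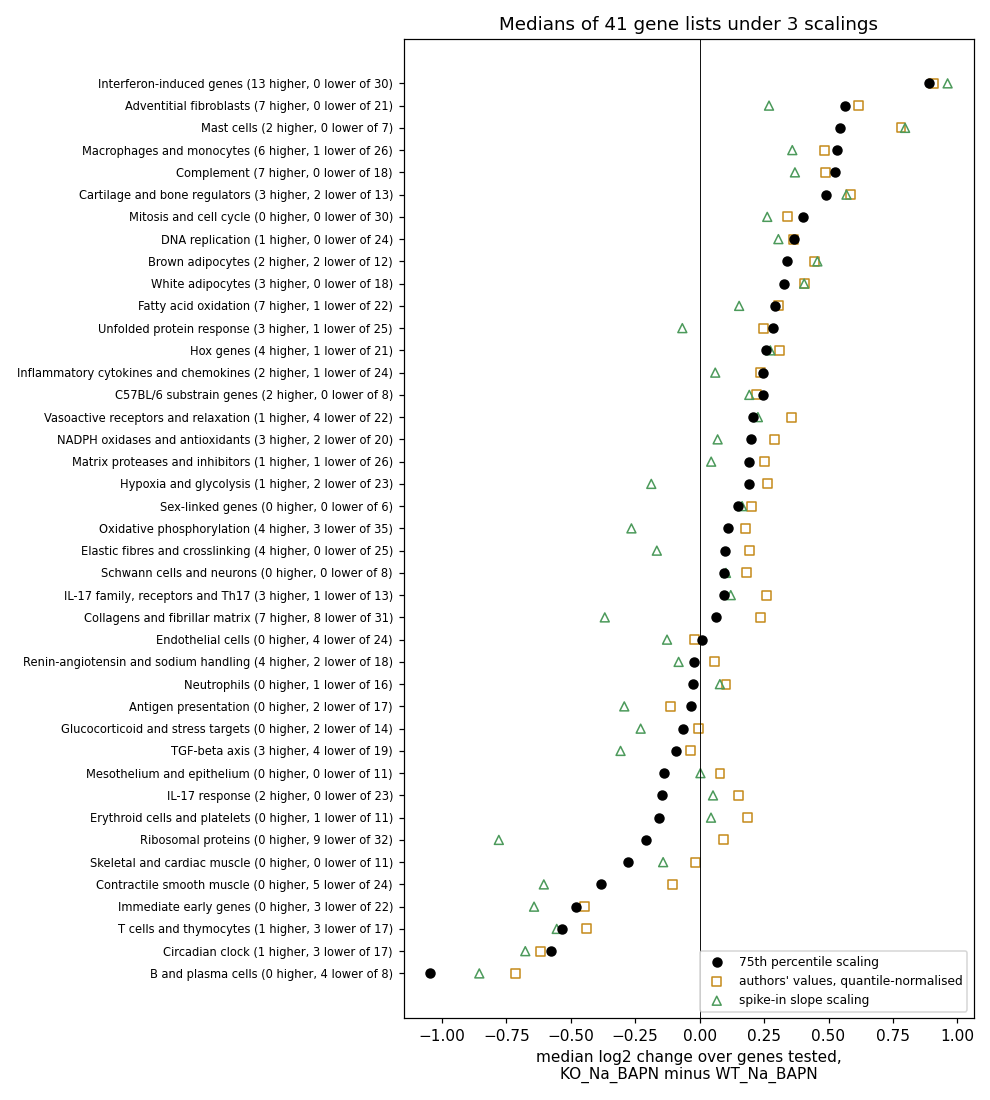
Median log2 difference between knockout and wild-type aortas under salt and infusion (horizontal axis) for each of the 41 gene lists (vertical axis), with the 75th percentile, the authors' values and the spike-in slope as scalings. Interferon-induced genes (0.89), adventitial fibroblast genes (0.56) and complement genes (0.52) stand on the positive side and B cell genes (-1.05) on the negative side under all 3, and ribosomal proteins change side with the scaling.

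Of 18 complement genes tested, 7 were higher and 0 lower, where 10.6% and 17.9% of all genes were, with a median of 0.52. With the authors' values 5 were higher and with slide as a random block 4, and 0 were lower in either. The central component C3 read 63.3, 61.3 and 67.0 in knockout aortas, against 32.4, 34 and 21.7 in wild-type aortas (log2 difference 1.15 ± 0.22, limma adjusted p = 0.00102). C4b of the classical pathway read 21.5, 31.1 and 24.9 in knockout aortas and 11.3, 12.9 and 9.51 in wild-type aortas (1.20 ± 0.22, limma adjusted p = 0.000697). Factor B (Cfb) read 14.5, 16.6 and 14.6 in knockout aortas and 7.88, 6.75 and 7.0 in wild-type aortas (1.08 ± 0.15, limma adjusted p = 4.31e-05). None of these overlapped between the genotypes.

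The regulator Cd59a, which blocks the membrane attack complex, was as high on each knockout array, at 14.6, 14.6 and 14.5, against 6.68, 7.59 and 6.63 in wild-type aortas (log2 difference 1.07 ± 0.12, limma adjusted p = 4.1e-06). C2 differed by 1.04 and the C1 proteases C1ra and C1s1 by 0.67 and 0.60. In controls, under salt alone and under infusion alone, 8, 10 and 9 of the 18 were higher and 0 were lower. Of all genes, 14.3%, 15.7% and 18.9% were higher and 22.8%, 23.6% and 27.2% were lower in the same order. C4b (mm9 chromosome 17, 34865328 to 34865387), Cfb (34993502 to 34993858) and C2 (34999575 to 34999634) lie beside Tnxb in the same stretch of chromosome 17.

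Of 8 B cell and plasma cell genes tested, 0 were higher and 4 lower, against 10.6% and 17.9% of all genes, with a median of -1.05, and the authors' values gave the same counts. The B cell receptor regulator Cd22 read 0.583, 0.714 and 0.535 in knockout aortas and 1.49, 1.5 and 1.38 in wild-type aortas (log2 difference -1.26 ± 0.23, limma adjusted p = 0.000647). Complement receptor Cr2 read 0.115, 0.131 and 0.100 in knockout aortas, against 0.263, 0.223 and 0.215 in wild-type aortas (-1.02 ± 0.17, limma adjusted p = 0.000238). Ms4a1 (CD20) was at least 2.30-fold lower, while Blk, Jchain and Mzb1 were among those too dim to test. The summed signal of the list, by contrast, was 60.1 to 76.1 in knockout aortas and 54.9 to 57.3 in wild-type aortas.

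Of 17 T cell genes tested, 1 was higher and 3 were lower, shares near the 10.6% and 17.9% of all genes. Cd3e, a chain of the T cell receptor complex, read 0.568, 0.541 and 0.589 in knockout aortas, against 1.26, 1.26 and 1.36 in wild-type aortas (log2 difference -1.19 ± 0.27, limma adjusted p = 0.00303). Its signalling partner Cd247 differed by -1.52 (limma adjusted p = 0.00387) and Cd4 by -0.50 (limma adjusted p = 0.0456). Thy1, which fibroblasts also express, went the other way, at 51.8, 39.6 and 33.3 in knockout aortas, against 20.9, 12.6 and 18.4 in wild-type aortas (1.27 ± 0.28, limma adjusted p = 0.00235). With slide as a random block Thy1 alone of these 4 was called.

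Of 26 macrophage and monocyte genes tested, 6 were higher and 1 was lower, against 10.6% and 17.9% of all genes, with a median of 0.53. The 6 became 2 or 3 in each fit that left out any 1 of the 6 arrays and 2 with slide as a random block. Cd68, a lysosomal protein of macrophages, read 18.3, 16.3 and 16.8 in knockout aortas, against 9.48, 6.18 and 8.95 in wild-type aortas (log2 difference 1.09 ± 0.30, limma adjusted p = 0.0129). Lyve1 and Folr2, markers of resident macrophages, differed by 0.75 and 0.66, and among the others the differences were 1.18 for Timd4 and 1.68 for Gpnmb. Itgam (CD11b), the integrin of myeloid cells, was lower, at 51.9, 65.3 and 63.6 in knockout aortas and 131, 141 and 108 in wild-type aortas (-1.07 ± 0.18, limma adjusted p = 0.000248). The general macrophage genes Csf1r (0.56, limma adjusted p = 0.0739) and Adgre1 (0.80, limma adjusted p = 0.0773) did not pass.

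Of 16 neutrophil genes, only Csf3r, the G-CSF receptor, was called, with 77.3, 107.3 and 89.4 in knockout aortas and 210, 234 and 199 in wild-type aortas (log2 difference -1.24 ± 0.18, limma adjusted p = 8.14e-05). The granule and surface markers Ly6g (0.06), Elane (0.05) and Mpo (0.47) were not called, and Retnlg, Mmp8, Ngp and Ltf were too dim to test. Csf3r and Itgam were also lower in controls, with log2 differences of -1.38 and -1.23. In antigen presentation 0 of 17 genes were higher and 2 lower, both under the 10.6% and 17.9% of all genes. The authors' values gave 1 and 1. One of the 2 was the class Ib gene H2-Q4, at 68.7, 84.1 and 73.0 in knockout aortas and 207, 190 and 178 in wild-type aortas (-1.35 ± 0.18, limma adjusted p = 3.28e-05). Members of the H2-Q family resemble each other, and the array cannot be assumed to separate them.

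Of 21 adventitial fibroblast genes tested, 7 were higher and 0 lower, where 10.6% and 17.9% of all genes were, with a median of 0.56. Spike-in scaling gave 5 higher and 2 lower with a median of 0.27, and 5 were higher with slide as a random block. Besides Dpt and Thy1 they included Col14a1, at 33.4, 41.6 and 34.2 in knockout aortas and 21.6, 19.1 and 14.8 in wild-type aortas (log2 difference 0.99 ± 0.16, limma adjusted p = 0.000169). The receptor Pdgfra read 4.6, 4.62 and 3.86 in knockout aortas, against 2.64, 2.19 and 2.89 in wild-type aortas (0.77 ± 0.18, limma adjusted p = 0.00483). Pcolce, an enhancer of collagen processing, read 165, 170 and 158 in knockout aortas and 118, 102 and 83.9 in wild-type aortas (0.71 ± 0.14, limma adjusted p = 0.00128). Lum (lumican) was near 0 on knockout array 3, at 64.5, 52.0 and 0.00678 in knockout aortas and 51.7, 30.4 and 46.2 in wild-type aortas, and did not pass (limma adjusted p = 0.161). Lum was named after its values were seen.

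Matrix genes moved in both directions, and part of that depended on the scaling. Of 31 collagens and fibrillar matrix genes, 7 were higher and 8 lower with the 75th percentile, 6 and 4 in the authors' values, 5 and 11 under spike-in scaling, and 3 and 2 with slide as a random block. The median was 0.06, but -0.37 under spike-in scaling. Col16a1 read 21.4, 20.7 and 22.7 in knockout aortas, against 14.0, 12.6 and 9.90 in wild-type aortas (log2 difference 0.85 ± 0.12, limma adjusted p = 8.05e-05). Col5a3 and Col8a2, minor fibrillar and short-chain collagens, were both 2.64-fold higher, and the small proteoglycan Fmod differed by 1.65 (limma adjusted p = 0.00985). Tenascin C (Tnc), a matrix protein of injured arteries, was lower, at 0.761, 1.18 and 1.55 in knockout aortas and 2.83, 2.56 and 2.93 in wild-type aortas (-1.31 ± 0.31, limma adjusted p = 0.00391). Col15a1 of the basement membrane zone was lower, with a log2 difference of -1.77 (limma adjusted p = 0.00427).

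The brightest matrix genes had no settled direction. Sparc read 431, 481 and 495 in knockout aortas, against 730, 762 and 716 in wild-type aortas (log2 difference -0.65, limma adjusted p = 0.000869), but differed by 0.14 in the authors' values. Col1a2 differed by -0.48 (limma adjusted p = 0.00581) and by 0.26 in the authors' values. Mgp, the inhibitor of vascular calcification, differed by -0.45 (limma adjusted p = 0.0146) and by 0.21 in the authors' values. All 3 lay lower on each knockout array in relative signal.

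In the elastic fibre and crosslinking list, which holds the targets of BAPN, 4 of 25 genes were higher and 0 lower, with 0 called with slide as a random block and 7 lower under spike-in scaling. Loxl2, a lysyl oxidase family member, read 14.3, 10.4 and 14.4 in knockout aortas, against 8.12, 8.34 and 6.10 in wild-type aortas (log2 difference 0.79 ± 0.24, limma adjusted p = 0.0221). Emilin2 differed by 0.73, Efemp1 by 0.61 and fibrillin 1 (Fbn1) by 0.41. Elastin (Eln) read 78.8, 66.1 and 77.6 in knockout aortas and 106, 98.0 and 101 in wild-type aortas, which did not pass (-0.46, limma adjusted p = 0.136). Lysyl oxidase itself (Lox) read 10.701, 9.31 and 12.6 in knockout aortas and 8.23, 7.49 and 11.6 in wild-type aortas, with overlap (limma adjusted p = 0.541). Leaving out knockout array 1 or 3 brought the 4 down to 1.

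Among 26 matrix proteases and inhibitors, Mmp3 was higher and Adamts1 lower. The versican-cleaving Adamts1 read 9.20, 14.7 and 16.6 in knockout aortas, against 33.1, 37.9 and 19.7 in wild-type aortas (log2 difference -1.15 ± 0.31, limma adjusted p = 0.00903). The gelatinase Mmp2 differed by 0.22 (limma adjusted p = 0.29), and Mmp9 was well above background on 0 of the 6 arrays. Of 13 cartilage and bone genes tested, 3 were higher and 2 lower, against 10.6% and 17.9% of all genes. The counts were 3 and 1 in the authors' values and 3 and 5 with normexp background correction. Comp, the cartilage oligomeric matrix protein, read 9.34, 13.5 and 7.70 in knockout aortas, against 2.63, 4.50 and 1.66 in wild-type aortas, 3.68-fold higher (1.88 ± 0.32, limma adjusted p = 0.000297). Cilp was higher by 1.07 (limma adjusted p = 0.00283), and aggrecan (Acan) was lower, at 2.49, 2.42 and 2.99 in knockout aortas and 4.96, 5.16 and 5.61 in wild-type aortas (-0.998 ± 0.25, limma adjusted p = 0.00631).

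Of 19 genes of the TGF-β axis, which holds aortic wall matrix in balance, 3 were higher and 4 lower, against 1 and 3 in the authors' values and 0 and 0 with slide as a random block. The ligand Tgfb1 read 0.933, 0.771 and 0.900 in knockout aortas, against 1.38, 1.24 and 1.41 in wild-type aortas (log2 difference -0.64 ± 0.13, limma adjusted p = 0.00158). The inhibitory Smad6 was lower, with a log2 difference of -1.13 (limma adjusted p = 0.00455). Tgfbi, a secreted protein induced by TGF-β, was higher, at 49.1, 47.9 and 48.7 in knockout aortas and 30.7, 21.1 and 31.2 in wild-type aortas (0.83 ± 0.23, limma adjusted p = 0.0117). Without knockout array 1 or wild-type array 2 the number higher was 1.

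Of 24 contractile smooth muscle genes tested, 0 were higher and 5 lower with a median of -0.38, a share lower that is near the 17.9% of all genes, whereas the authors' values gave 1 and 2 with a median of -0.10 and spike-in scaling gave 0 and 10. Acta2 read 415, 492 and 491 in knockout aortas and 813, 857 and 760 in wild-type aortas (log2 difference -0.80, limma adjusted p = 0.000332), but -0.06 in the authors' values (limma adjusted p = 0.555). Tagln differed by -0.80 and by -0.07 in the authors' values, and Myl9 by -0.53 and by 0.29. Myocd, the coactivator that drives the contractile programme, kept its direction, at 2.41, 4.35 and 4.70 in knockout aortas and 8.14, 11.4 and 6.48 in wild-type aortas (-1.20 ± 0.36, limma adjusted p = 0.019), with -1.27 in the authors' values. Leaving out knockout array 1 or wild-type array 2 brought the 5 down to 2.

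Ribosomal protein genes, which are among the brightest on any array, showed the same dependence. Of 32 tested, 0 were higher and 9 lower with a median of -0.21, against 2 higher and 1 lower with a median of 0.09 in the authors' values and 27 lower under spike-in scaling. Rpsa was lower under both, at 231, 266 and 268 in knockout aortas and 429, 357 and 443 in wild-type aortas (log2 difference -0.68, limma adjusted p = 0.00182), with -0.32 in the authors' values (limma adjusted p = 0.0166). Without knockout array 1 or 2 or wild-type array 3 the number lower was 4.

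Of 24 endothelial genes tested, 0 were higher and 4 lower, the second a share near the 17.9% of all genes, with a median of 0.01 and with 1 lower with slide as a random block. The endothelial transcription factor Erg read 0.680, 0.916 and 0.800 in knockout aortas, against 1.66, 1.45 and 1.38 in wild-type aortas (log2 difference -0.91 ± 0.15, limma adjusted p = 0.000181). The VEGF receptor Kdr read 7.44, 7.55 and 7.72 in knockout aortas and 11.3, 10.8 and 10.8 in wild-type aortas (-0.53, limma adjusted p = 0.0293), a call that held in 1 of the 6 fits without 1 array. Endoglin (Eng) differed by -0.56 (limma adjusted p = 0.0101).

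Among 22 receptors and enzymes of vessel tone, 1 was higher and 4 were lower, against 10.6% and 17.9% of all genes. The share lower was thus near that of all genes. With slide as a random block 3 were lower, where 8.30% of all genes were. The α1D adrenergic receptor Adra1d, which mediates contraction of the aorta, read 0.0726, 0.0939 and 0.120 in knockout aortas, against 0.386, 0.676 and 0.352 in wild-type aortas, 4.83-fold lower (log2 difference -2.27 ± 0.45, limma adjusted p = 0.00115). The cGMP phosphodiesterase Pde5a read 0.634, 0.818 and 0.689 in knockout aortas and 1.29, 1.27 and 1.09 in wild-type aortas (-0.78 ± 0.17, limma adjusted p = 0.00264). The natriuretic peptide receptor Npr1 was lower, with a log2 difference of -1.09 (limma adjusted p = 0.00981), and the prostacyclin receptor Ptgir was higher by 0.95 (limma adjusted p = 0.00122). The Adra1d difference was -2.00 in controls.

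In the renin-angiotensin and sodium handling list, 4 of 18 genes were higher and 2 lower, with 0 and 1 with slide as a random block. The angiotensin receptor Agtr1a read 0.333, 0.370 and 0.398 in knockout aortas and 0.194, 0.222 and 0.265 in wild-type aortas (log2 difference 0.70 ± 0.25, limma adjusted p = 0.043), a call that held in 1 of the 6 fits without 1 array. Nfat5, the osmotic stress factor, was lower, with a log2 difference of -0.73 (limma adjusted p = 0.0281). Its difference under salt alone was 0.08, but the test of the change from salt alone called 0 genes of this list.

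Of 20 NADPH oxidase and antioxidant genes, 3 were higher and 2 lower. Catalase (Cat) read 6.19, 6.79 and 6.57 in knockout aortas and 16.5, 16.1 and 9.81 in wild-type aortas (log2 difference -1.08 ± 0.23, limma adjusted p = 0.00235). Nox1, the smooth muscle NADPH oxidase that angiotensin II induces, read 0.0153, 0.0165 and 0.0323 in knockout aortas and 0.0756, 0.101 and 0.0803 in wild-type aortas (-2.08 ± 0.28, limma adjusted p = 3.93e-05), with only 1 of the 3 knockout arrays well above background, so the size of the difference is uncertain. Both were also lower in controls, with log2 differences of -1.19 and -2.34. Gclc of glutathione synthesis was higher by 0.54, plasma glutathione peroxidase Gpx3 by 0.72 and the phagocyte oxidase Cybb by 0.69.

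Metabolic genes differed modestly. In fatty acid oxidation 7 of 22 genes were higher and 1 lower, against 10.6% and 17.9% of all genes, with 5 and 1 in the authors' values, 1 and 1 with slide as a random block, and 2 and 1 without knockout array 1. Cpt1a, the gatekeeper of mitochondrial import, read 9.92, 8.99 and 7.54 in knockout aortas, against 6.01, 6.24 and 5.23 in wild-type aortas (log2 difference 0.59 ± 0.14, limma adjusted p = 0.00422), with differences of -0.11, 0.02 and 0.07 in controls, under salt alone and under infusion alone. The change from each of these conditions did not pass (limma adjusted p = 0.410, 0.397 and 0.697 in that order). A second Cpt1a probe differed by only 0.22 and was not called. Angptl4, an inhibitor of lipoprotein lipase, read 15.5, 19.4 and 9.05 in knockout aortas and 4.42, 3.78 and 7.39 in wild-type aortas (1.49 ± 0.45, limma adjusted p = 0.0199), a call that held in 2 of the 6 fits without 1 array and was lost with slide as a random block (limma adjusted p = 0.13). Its difference in controls was -1.55, and the change of 3.03 between the conditions did not pass (limma adjusted p = 0.122). The nuclear receptor Ppara was lower, at 0.480, 0.504 and 0.453 in knockout aortas and 0.754, 0.852 and 0.766 in wild-type aortas (-0.72 ± 0.15, limma adjusted p = 0.00177).

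Fat markers varied from array to array. Of 18 white adipocyte genes 3 were higher and 0 lower, with 0 without knockout array 1 and 5 without knockout array 3. Of 12 brown adipocyte genes 2 were higher and 2 lower, and 3 and 2 in the authors' values. The shares of all genes were 10.6% higher and 17.9% lower. The gluconeogenic enzyme Pck1 read 0.541, 0.649 and 0.0765 in knockout aortas, against 0.0543, 0.0976 and 0.0373 in wild-type aortas, and the brown fat subunit Cox8b read 3.13, 3.29 and 0.532 in knockout aortas and 0.466, 0.708 and 0.252 in wild-type aortas. Knockout array 3 lay within the wild-type range for both genes. Lipoprotein lipase (Lpl) was higher on each knockout array, at 5.47, 4.96 and 3.02, against 2.40, 2.71 and 1.79 in wild-type aortas (log2 difference 0.94 ± 0.25, limma adjusted p = 0.00845). The amount of surrounding fat on each aorta was not measured, and its part in these values was not tested.

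Of 35 oxidative phosphorylation genes, 4 were higher and 3 lower, against 10.6% and 17.9% of all genes. The counts were 7 and 3 in the authors' values and 0 and 10 under spike-in scaling. With 1 of the 6 arrays left out the number higher ran from 1 to 9. Atp5d, a subunit of ATP synthase, read 16.4, 18.1 and 20.0 in knockout aortas and 29.2, 27.0 and 29.0 in wild-type aortas (log2 difference -0.65 ± 0.10, limma adjusted p = 0.000118). The unfolded protein response list had 3 of 25 higher and 1 lower, against 10.6% and 17.9% of all genes, but 7 and 1 in the authors' values and 1 and 3 under spike-in scaling. It had 1 higher without knockout array 3 or wild-type array 1 or 2, and 7 without wild-type array 3. The secreted chaperone factor Manf read 22.0, 19.5 and 27.1 in knockout aortas and 10.9, 11.8 and 17.3 in wild-type aortas (0.80 ± 0.28, limma adjusted p = 0.0374). Of 30 mitosis genes 0 were called, 0 in the authors' values too, and Mki67 read 24.1, 15.5 and 16.3 in knockout aortas and 17.2, 8.19 and 20.2 in wild-type aortas. Outside that list, the mitotic kinesin Kifc1 was among the 15 genes with the largest positive differences. It read 0.928 to 1.61 in knockout aortas and 0.0446 to 0.114 in wild-type aortas. Its wild-type signal was dim, so the size of the difference is uncertain. Of 24 replication genes only Mcm3 was called, and without wild-type array 3 there were 6 called higher. The primase subunit Prim2, lower as described above, was not in that list.

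Immediate early genes, which rise within minutes of a stimulus or of tissue handling, gave 0 of 22 higher and 3 lower, against 10.6% and 17.9% of all genes. The AP-1 subunit Jun read 11.3, 14.2 and 10.1 in knockout aortas, against 34.8, 20.0 and 62.6 in wild-type aortas (log2 difference -1.58 ± 0.33, limma adjusted p = 0.00177). Jund read 22.3, 19.5 and 25.7 in knockout aortas and 43.6, 53.1 and 37.0 in wild-type aortas (-0.98 ± 0.19, limma adjusted p = 0.000875). Wild-type array 3 was the highest for several that were not called, such as Egr1, at 4.20, 4.74 and 3.02 in knockout aortas and 3.97, 2.55 and 15.2 in wild-type aortas. The median of the list was -0.48 with that array and -0.04 without it.

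Circadian clock genes set the same wild-type array apart. The clock runs as a loop in which Arntl and Clock drive the Per, Cry, Dbp and Tef genes, whose levels therefore follow the time of day. Of 17 tested, 1 was higher and 3 were lower, with a median of -0.58, and the authors' values gave 1 and 1, but without wild-type array 3 the counts were 2 and 9 and the median -1.08. Arntl read 3.39, 2.80 and 2.50 in knockout aortas, against 0.548, 0.444 and 2.53 in wild-type aortas (log2 difference 1.76 ± 0.58, limma adjusted p = 0.0296). Per2 read 0.138, 0.140 and 0.150 in knockout aortas, against 0.604, 0.963 and 0.156 in wild-type aortas (-1.66 ± 0.53, limma adjusted p = 0.026). In both genes wild-type array 3, which was on another slide than the other wild-type arrays, lay with the knockout arrays.

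The clock output gene Dbp read 13.5, 11.1 and 10.02 in knockout aortas and 47.1, 62.8 and 5.46 in wild-type aortas, with wild-type array 3 below every knockout array, and did not pass (limma adjusted p = 0.259). Tef read 14.6, 19.4 and 17.0 in knockout aortas and 46.9, 57.9 and 13.7 in wild-type aortas. Per1 kept the groups apart, at 2.17, 3.58 and 4.63 in knockout aortas, against 10.8, 14.3 and 7.86 in wild-type aortas (log2 difference -1.69 ± 0.35, limma adjusted p = 0.00151). In controls 3 of the 17 were higher and 7 lower, under salt alone 4 and 9, and under infusion alone 2 and 9. Of all genes, 14.3% were higher and 22.8% lower in controls, 15.7% and 23.6% under salt alone, and 18.9% and 27.2% under infusion alone. The time of day at which the aortas were taken is not in the labels, and its part in these values was not tested. Dbp, Tef and Egr1 were named after their values were seen.

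**Figure D5:**
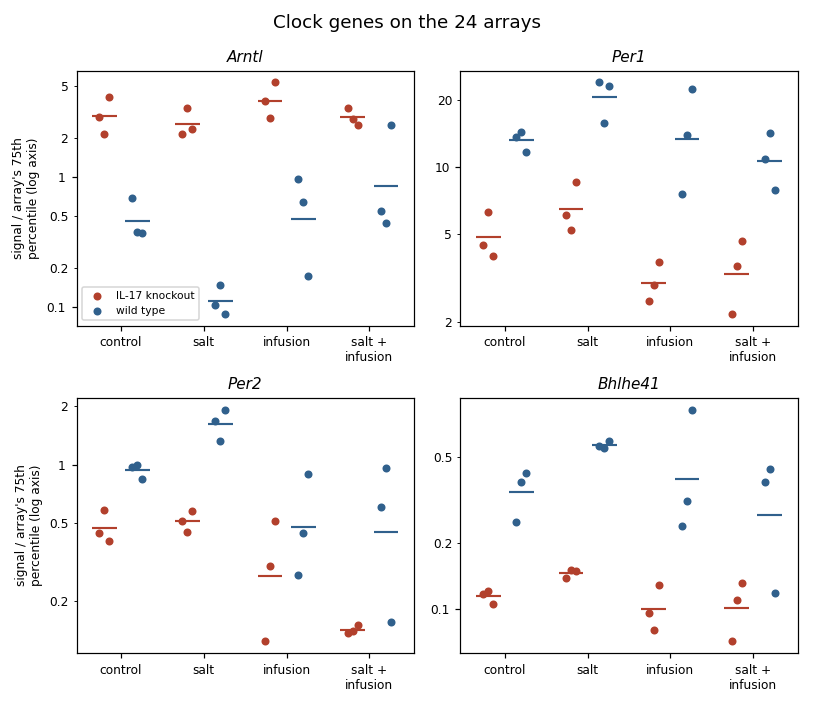
Relative signal (log axis) of 4 circadian clock genes on the 24 arrays, by genotype and condition, with 3 points a group and a bar at the mean of the log values. Under salt and infusion 1 of the 3 wild-type arrays lies with the knockout arrays for Arntl, Per2 and Bhlhe41, and for Per1 the genotypes stay apart.

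Of 21 Hox genes, which mark position along the body axis, 4 were higher and 1 lower, against 7 and 1 in the authors' values and 1 and 0 with slide as a random block. Hoxc6 read 2.22, 2.46 and 1.82 in knockout aortas and 1.11, 0.816 and 1.05 in wild-type aortas (log2 difference 1.13 ± 0.25, limma adjusted p = 0.00258), and Hoxc4 was higher by 0.72 (limma adjusted p = 0.0195). Hoxa4 was lower, with a log2 difference of -0.89 (limma adjusted p = 0.0016). Of 6 X- and Y-linked genes that differ between the sexes, 0 were called, among them the Y-linked Ddx3y, at 6.26, 5.57 and 5.24 in knockout aortas and 3.60, 5.08 and 5.79 in wild-type aortas. Xist, Kdm5d and Usp9y were too dim to test. In controls, under salt alone and under infusion alone 1 was lower, against 22.8%, 23.6% and 27.2% of all genes. Outside the list, the Y-linked Ssty1 read 0.00974, 0.0310 and 0.0216 in knockout aortas and 0.208, 0.386 and 0.374 in wild-type aortas. Its knockout signal was dim, so the size of the difference is uncertain.

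Of 8 genes that differ between C57BL/6 substrains, 2 were higher and 0 lower. Nnt, a mitochondrial transhydrogenase that is disrupted in C57BL/6J, read 5.41, 5.15 and 5.02 in knockout aortas and 3.75, 4.35 and 4.36 in wild-type aortas (log2 difference 0.33, limma adjusted p = 0.0199), but the mean over its probes differed by -0.16. Entpd4, a Golgi nucleotidase, read 25.7, 26.9 and 27.6 in knockout aortas and 11.3, 10.02 and 24 in wild-type aortas (0.94 ± 0.21, limma adjusted p = 0.00269). Wild-type array 3, the one that differed in the clock genes, was again close to the knockout arrays.

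Genes beside the Il17a locus were examined as well. Within 10 Mb of the Il17a probe 27 of 73 genes were called (37.0%, where 28.5% were called overall), with 7 higher, 20 lower and a median of -0.08. Mcm3, a subunit of the replicative helicase at 0.1 Mb, read 9.04, 9.99 and 9.87 in knockout aortas, against 3.71, 2.57 and 4.99 in wild-type aortas (log2 difference 1.41 ± 0.24, limma adjusted p = 0.000297). Tram2, an endoplasmic reticulum protein of collagen synthesis at 0.3 Mb, was lower, at 1.97, 3.48 and 4.10 in knockout aortas and 9.64, 9.86 and 7.08 in wild-type aortas (-1.53 ± 0.27, limma adjusted p = 0.000458). Both differences were present in controls, at 1.27 and -1.07. The secreted protein Crispld1 at 3 Mb was lower, with a log2 difference of -1.82 (limma adjusted p = 7.01e-06).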

How the data were processed

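Aorta RNA of 8 groups of 3 arrays was measured. The files hold Agilent scanner output, and per the file headers the deposited intensity values (gProcessedSignal) came from Feature Extraction 10.7.1.1, while the submitters' processing notes name version 9.5.1.1. The deposited value table holds intensities that the authors quantile-normalised, which were put on the log2 scale here and used as an alternative. Control spots and outlier spots were left out. Signals were divided by the array's 75th percentile and put on the log2 scale. A probe was kept (33373 were) if some group had all 3 of its arrays well above background, and the brightest probe stood for its gene. One limma (version 3.58.1, R 4.3.3) model of the 24 arrays and 8 groups gave each difference of means, knockout minus wild type, with Benjamini-Hochberg adjustment over 23501 genes. The procedure was tested on simulated data.

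Alternatives were quantile normalisation, normexp background correction (offset 50), a scaling set by the slope of the spike-in signals, other filters on probes, averaging probes within a gene, a trended prior variance, a random block for slide, a block for replicate, a fit of the compared groups alone, and each array left out. Cyclic loess was added after seeing the data. Genes were named by rule: the 15 largest changes of each sign without overlap, up to 6 members of each of the 41 lists with the smallest p, any member of the IL-17, sex-linked and substrain lists, up to 5 of each sign of each difference of effects, and up to 6 genes near Il17a. The members and lists were chosen with earlier results of these data known. Probe positions are mm9, and promoters are RefSeq GRCm38.p6. The number of arrays limits the precision.
Some genes are not reported here.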

Additional observations from a re-analysis of the deposited data

Results flagged for a closer look

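For the named genes below, apart from Vmn1r139, the genotype difference, knockout minus wild type, was not the same under salt and infusion as in another condition, by a test of the difference between the 2 effects (limma, adjusted over all genes). Against controls, Gm9706 changed by 2.30 on the log2 scale (adjusted p = 0.0203), with a genotype difference of 1.31 under salt and infusion and -0.99 in controls. Stard3, a cholesterol-binding protein of late endosomes, changed by 1.13 (adjusted p = 0.0170), with 0.32 and -0.81. Vmn1r139, a vomeronasal receptor, changed by 1.63 (adjusted p = 0.0423), with -0.99 and -2.62, but its probe was above background on 0 of the 6 arrays compared here, so that neither -0.99 nor the change is a measured difference.

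Against salt alone, 4930579P08Rik changed by -3.27 (adjusted p = 0.0182), with 0.74 under salt and infusion and 4.01 under salt alone. Cdc7, a kinase that fires replication origins, changed by -2.23 (adjusted p = 0.0182), with -0.85 and 1.38. Gm9706 changed by 2.18 (adjusted p = 0.0235), with 1.31 and -0.87, and G530011O06Rik by 2.15 (adjusted p = 0.0493), with 0.81 and -1.34. Mthfd1l, a mitochondrial folate enzyme, changed by 1.54 (adjusted p = 0.0270), with -0.21 and -1.76. The antiviral GTPase Mx2 changed by 1.45 (adjusted p = 0.0493), with 0.79 and -0.66. Rab11fip4 changed by 1.27 (adjusted p = 0.0354), with -0.77 and -2.04, Stard3 by 1.15 (adjusted p = 0.0120), with 0.32 and -0.83, and the transcription factor Etv5 by 0.80 (adjusted p = 0.0235), with 0.04 and -0.77.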

How the results depend on the processing

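The 6702 genes called between knockout and wild type were 5784 after quantile normalisation (44.6% of them higher), 5952 in the authors' values (47.4%), 6700 with spike-in scaling (30.5%), 11694 with normexp (28.6%), 6270 with cyclic loess (48.7%), 8561 without a filter (26.0%), 5135 with probes above background on all arrays (47.3%) and 2345 with slide as a random block (16.8%), against 37.3% higher in the reported result. Normexp moved the median of all genes to -0.135 and dropping the filter to -0.156. With 1 array left out the count ran from 4126 (without knockout array 1) to 6844 (without wild-type array 3). The replicate numbers did not pair the arrays (correlations of -0.003, 0.26 and 0.056 between same-numbered arrays), and a fit with the replicate block called 6404 genes. The 6 differences of effects against controls were 11 after quantile normalisation, 12 in the authors' values, 13 with all-array probes, 11 with probes above background in a compared group, 12 with the random block and 24 with only the groups compared, and 0 to 11 with 1 array left out. The 17 against salt alone were 5 with normexp, 11 in the authors' values, 77 with only the groups compared and 6 with cyclic loess, and 4 to 24 with 1 array left out. Against infusion alone the count was 0 under every setting but leaving out an array (0 to 33). Some named genes changed sign, with the cause not tested. These were Cnn1 (0.035), Mgp (0.20), Myl9 (0.23) and Sparc (0.14) after quantile normalisation, the same genes in the authors' values (0.048, 0.21, 0.29 and 0.14), G530011O06Rik (-0.39), Hoxc5 (-0.21) and Scnn1a (-0.14) with normexp, and Nnt (-0.16) and Tgfbr2 (-0.0085) with the mean of probes. Of 240 named results, 202 kept direction and call in the authors' values and 141 with the random block. With 3 arrays a group and genotype, slide and scan session running together, no fit here separates them. Probes near background give bounds only.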

Other observations

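Mesothelial and epithelial genes, which cover the outer surface of vessels and organs, were called in 0 of 11 cases under salt and infusion, with a median difference of -0.14 (0.08 in the authors' values), against 9 higher of 11 and a median of 2.26 under infusion alone. Of all genes, 18.9% were higher in the knockout under infusion alone. The test of the difference between these 2 genotype effects called 0 genes of the list. Mesothelin (Msln), named after its values were seen, read 5.47, 0.466 and 4.75 in knockout aortas and 3.34, 4.81 and 1.93 in wild-type aortas, so that knockout array 2 stood apart. Without that array the median of the list was 0.80. Glucocorticoid and stress targets gave 0 higher and 2 lower of 14. One of the 2 was Per1, and the other was the transcription factor Zbtb16, which read 1.44, 2.04 and 1.43 in knockout aortas and 6.87, 11.6 and 1.98 in wild-type aortas, with wild-type array 3 near the knockout arrays as for the clock genes. In hypoxia and glycolysis 1 of 23 genes was higher and 2 lower, against 5 and 1 in the authors' values and 2 and 6 under spike-in scaling. Egln3, an oxygen-sensing prolyl hydroxylase, was higher by 0.67 (limma adjusted p = 0.0096). That call held in 4 of the 6 fits without 1 array and was lost with slide as a random block (limma adjusted p = 0.192). A second Egln3 probe differed by only 0.26 and was not called. Hk1 and Pfkl of glycolysis were lower, with log2 differences of -0.44 and -0.49.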
